A study of Rattus norvegicus with 4 samples.

Results

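Active FOXO1 was set against a green fluorescent protein (GFP) control in rat granulosa cells that had all received follicle-stimulating hormone (FSH). This comparison used 2 of the 4 arrays of the series, 1 with FOXOA3 and FSH and 1 with GFP and FSH. All probe sets that carry exactly 1 gene symbol entered it, which were 20826 of 31042 rat probe sets and stood for 14217 genes. The cells were primary granulosa cells of female Sprague-Dawley rats aged 23 to 25 days, and every rat had been given estradiol. Cells were exposed for 4 h to an adenovirus carrying GFP, FOXOA3 (a constitutively active FOXO1) or FOXOA3-mDBD (a version mutated in its DNA-binding part). After washing they were kept for 24 h with FSH at 100 ng/ml or with vehicle, in serum-free medium, so all 4 groups shared the estradiol, the culture and an adenovirus. The other 2 arrays, GFP with vehicle and FOXOA3-mDBD with FSH, are given below beside the members' values and are called vehicle and the mutant. Each group was 1 array, and whether its RNA was pooled from several animals is not given in the sources used here. No difference below therefore has a replicate check, a test or an error, and how precise a value is depends on 1 array per side.

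FOXO1 is a forkhead transcription factor that moves between nucleus and cytoplasm. FSH and insulin-like growth factors act through phosphatidylinositol 3-kinase and AKT, and AKT phosphorylates FOXO1 and sends it out of the nucleus. The FOXOA3 form cannot be phosphorylated at the AKT sites, so it stays active when FSH is present. Granulosa cells surround the oocyte and answer FSH by dividing, by making estradiol through aromatase and progesterone through the side-chain cleavage enzyme, and by gaining receptors for luteinizing hormone. The steroids are built from cholesterol, which the cells take up from lipoproteins or make themselves.

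Values are MAS5 signals, a linear brightness per probe set. A gene was read through its brightest probe set, and its signals were raised to a floor of 100.5, the median of all rat probe sets, before the ratio was taken. A gene counted as measured where at least 1 of both arrays was above the floor, which held for 9941 genes. Fold changes are FOXOA3 with FSH over GFP with FSH, and a gene is called higher or lower at 2-fold or more. Where 1 of the signals lies under the floor, the fold is a bound and is written "at least". In bulk RNA, fewer cells of a type and less RNA per cell cannot be told apart.

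Stretches of promoter around short letter runs show the kinds of genes that differed most, and the genes printed were chosen after their values were seen. They are from RefSeq on the GRCr8 assembly, run 5′ to 3′ in the direction of the gene, and lie within the 250 bases before its start. Tspan8 (a tetraspanin), Gpnmb (a transmembrane glycoprotein) and Cald1 (caldesmon, an actin-binding protein) were higher with FOXOA3, and the capitals mark the FOXO motif GTAAACA on either strand.
Tspan8 (chr7:53331067-53331186, + strand): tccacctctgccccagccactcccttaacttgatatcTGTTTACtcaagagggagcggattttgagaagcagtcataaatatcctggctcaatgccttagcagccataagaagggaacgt
Gpnmb (chr4:79341008-79341127, + strand): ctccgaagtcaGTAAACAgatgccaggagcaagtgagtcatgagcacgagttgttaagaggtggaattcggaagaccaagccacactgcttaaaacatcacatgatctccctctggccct
Cald1 (chr4:64233136-64233255, + strand): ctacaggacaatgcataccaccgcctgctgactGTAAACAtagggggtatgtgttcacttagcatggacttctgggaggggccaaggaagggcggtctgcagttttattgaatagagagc
Irf7, a transcription factor of the interferon response, and Ifit3, an antiviral protein, were higher as well. Capitals mark the interferon-stimulated response element, GAAA and GAAA with any 2 bases between them, again on either strand.
Irf7 (chr1:205800024-205800143, - strand): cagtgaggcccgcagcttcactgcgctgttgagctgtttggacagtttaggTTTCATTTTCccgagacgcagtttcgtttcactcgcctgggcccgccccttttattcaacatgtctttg
Ifit3 (chr1:241527206-241527325, + strand): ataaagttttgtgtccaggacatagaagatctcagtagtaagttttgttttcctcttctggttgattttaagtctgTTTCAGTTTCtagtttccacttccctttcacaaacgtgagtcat
Hsd17b7 and Msmo1, both enzymes of cholesterol synthesis, were lower, and so was Cdk1, the kinase that starts mitosis. Capitals mark the NF-Y motif CCAAT (its reverse complement is ATTGG) and, for Cdk1, also the cell cycle homology region TTTGAA.
Hsd17b7 (chr13:84722755-84722934, - strand): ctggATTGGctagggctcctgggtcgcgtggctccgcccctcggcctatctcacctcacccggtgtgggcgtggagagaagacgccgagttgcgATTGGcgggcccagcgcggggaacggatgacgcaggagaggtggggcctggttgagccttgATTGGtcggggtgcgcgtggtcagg
Msmo1 (chr16:29746933-29747112, + strand): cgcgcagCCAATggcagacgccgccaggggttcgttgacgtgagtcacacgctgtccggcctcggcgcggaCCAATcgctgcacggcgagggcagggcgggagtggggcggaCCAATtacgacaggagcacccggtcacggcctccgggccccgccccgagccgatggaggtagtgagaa
Cdk1 (chr20:19265153-19265292, + strand): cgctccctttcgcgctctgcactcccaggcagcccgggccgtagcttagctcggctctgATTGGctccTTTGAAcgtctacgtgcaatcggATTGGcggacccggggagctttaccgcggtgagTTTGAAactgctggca

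The shares of promoters that hold these letters differed between the gene groups. The FOXO motif was in 2.20% of the 9300 windows of measured genes, in 3.65% of the 985 windows of the higher genes, in 6.84% of the 190 windows of genes higher by 4-fold or more, and in 1.53% of the 652 windows of the lower genes. Over all 33469 windows of the RefSeq table the share was 3.21%. In the list of FOXO target genes it was 16.33% of 49 windows, a list made partly of genes known to carry such sites. The interferon-stimulated response element was in 57.89% of 38 windows of interferon-stimulated effectors, against 2.75% of measured genes and 3.41% of the table. It was in 3.55% of windows of the higher genes and 2.3% of the lower genes. In class I antigen genes it was in 53.85% of 13 windows, though only 3 of 15 measured members were higher and none lower. CCAAT was in 81.25% of 16 windows of sterol synthesis genes and 74.19% of 31 windows of mitosis genes. Its share was 35.68% of measured genes, 34.02% of the table, 31.47% of the higher genes and 41.72% of the lower genes. In integrated stress and unfolded protein response genes it was in 64.52% of 31 windows. Of that list 11 of 33 measured members were higher and 4 lower. TTTGAA was in 41.94% of the mitosis windows, against 10.27% of measured genes and 16.2% of the table. The sterol regulatory element TCACNCCAC was in none of the 16 sterol synthesis windows and in 0.94% of measured genes and 0.97% of the table, and the full cAMP response element TGACGTCA was in 1.69% of lower genes, 3.0% of measured genes and 1.59% of the table. A short run of letters is a description of the window and not a bound site, and a missing one says only that these letters are not in it. Both strands were searched, and CCAAT is short enough to fall in a window often by its length.

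**Figure D1:**
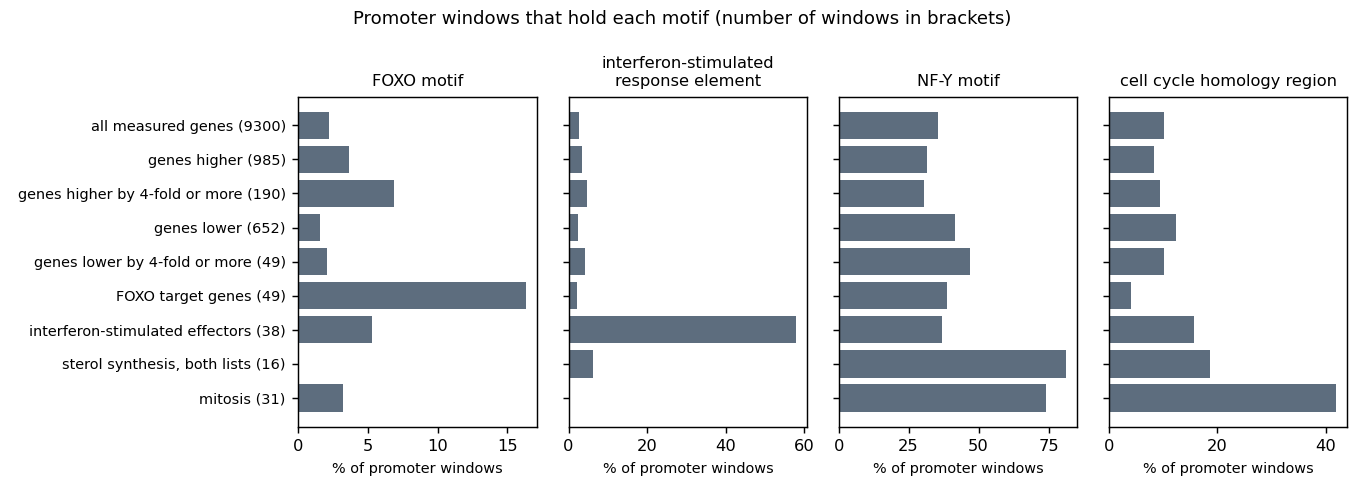
Percent of 250-base promoter windows (horizontal axes, each on its own scale) that hold each of 4 motifs, for 9 sets of genes, with the number of windows in brackets. The interferon-stimulated response element reaches 57.89% in interferon-stimulated effectors, CCAAT reaches 81.25% in sterol synthesis genes and 74.19% in mitosis genes, and TTTGAA reaches 41.94% in mitosis genes.

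With FOXOA3, 1105 of the 9941 measured genes were higher by 2-fold or more (11.1%) and 695 were lower (6.99%). The higher genes reached further. Among them 233 differed by 4-fold or more, 66 by 8-fold or more and 22 by 16-fold or more. Among the lower genes 64 differed by 4-fold or more, 3 by 8-fold or more and 1 by 16-fold or more. With the floor at the 75th percentile of signals, 423 genes were higher and 391 lower, since dim genes then count as equal, and mitosis had 14 lower genes, FOXO targets 13 higher and interferon effectors 10 higher. Tmem252, Pbk, Ccna2, Bub1b, Ttk, Nppc, Akap12, Igfbp4, Stat2, Cxcl10, Nfkbiz, Chac1, Hey1, Bbc3 and Acta2, named below, then came within 2-fold. A bound stood for 250 of the higher genes and 57 of the lower ones. Of the higher genes, 292 had another measured probe set, and for 261 of them (89.4%) all such probe sets lay on the same side of 0. Of the lower genes this held for 151 of 177 (85.3%). Fewer also passed 2-fold with all such probe sets, 104 of the 292 higher genes (35.6%) and 61 of the 177 lower genes (34.5%). For 1 higher and 2 lower genes another probe set passed 2-fold in the opposite direction.

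**Figure D2:**
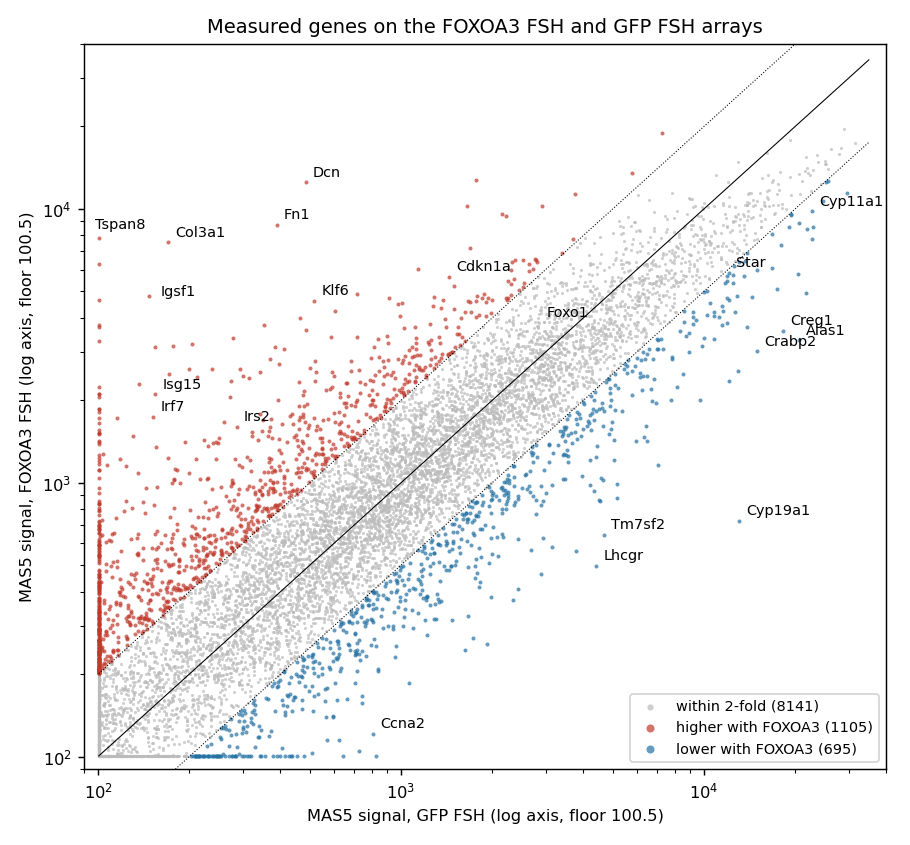
MAS5 signal of each measured gene on the GFP FSH array (horizontal, log axis) and the FOXOA3 FSH array (vertical, log axis), 1 array each, with signals under 100.5 set at that floor; the solid line is equality and the dotted lines are 2-fold. Tspan8 (7837 with FOXOA3) and Dcn (12504 with FOXOA3) lie far above the 2-fold line and Cyp19a1 (13042 with GFP, 725.5 with FOXOA3) far below it.

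The arrays themselves differed in ways that touch this comparison. Spiked-in polyadenylated control transcripts had a geometric mean of 394.6 on the GFP FSH array and 22.6 on the FOXOA3 FSH array, over 24 probe sets. On the vehicle array it was 21.4 and on the mutant array 539.4, so the comparison crosses that difference. Hybridization controls had a geometric mean of 2759 on the GFP FSH array and 1224 on the FOXOA3 FSH array. The ratio of the 3′ to the 5′ actin probe sets, a measure of RNA integrity, was 12.0 and 9.79 on them, against 5.15 with vehicle and 10.7 with the mutant. The same ratio for GAPDH ordered the compared arrays the other way, at 2.455 and 2.842. It was 2.316 with vehicle and 3.155 with the mutant. The brightest decile of measured genes had a median log2 ratio of -0.37, against 0.19 in the dimmest decile and 0.04 over all genes. Reference genes, chosen as usual standards, showed this too, with a median of -0.59 over 12 genes and 1 of them lower. Among them Tfrc, the transferrin receptor, was 2.39-fold lower (within 2-fold after loess or quantile normalization) and Hprt1 had a log2 ratio of 0.71. A loess curve against brightness brought the reference genes' median to -0.12. The part of brightness, RNA integrity and the control transcripts in the results was not tested.

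**Figure D3:**
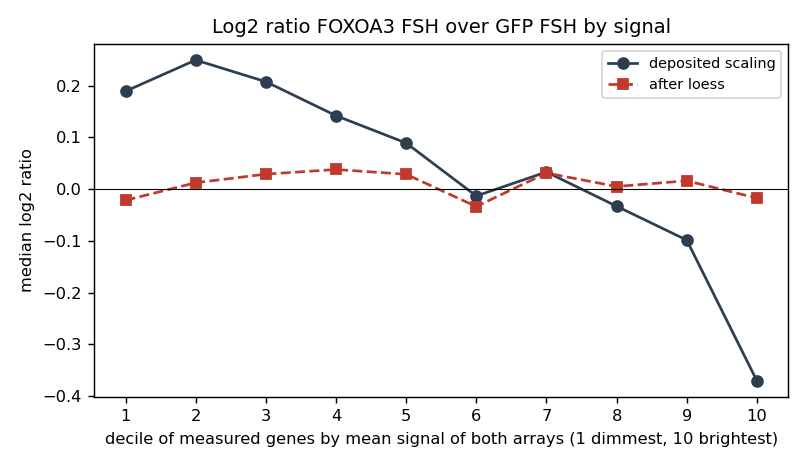
Median log2 ratio of FOXOA3 with FSH over GFP with FSH (vertical axis) in each decile of the measured genes, ordered by mean signal (horizontal axis, dimmest to brightest), with the deposited scaling and after loess. With the deposited scaling the medians run from 0.25 in the second decile to -0.37 in the brightest, and after loess they lie between -0.03 and 0.04.

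The 20 highest ratios included genes of membrane and secreted proteins. Tspan8, a membrane protein of the tetraspanin family, read 136 with vehicle, 23.7 with GFP and FSH, 7837 with FOXOA3 and FSH and 269 with the mutant. Only the FOXOA3 array was bright, and the difference was at least 78.0-fold. Igsf1, an immunoglobulin-family membrane protein, read 167 with vehicle, 148 with GFP and FSH, 4800.5 with FOXOA3 and FSH and 161.5 with the mutant, and Dmrtc1c1 read 38.2 with vehicle, 39.6 with GFP and FSH, 1719.6 with FOXOA3 and FSH and 38.4 with the mutant. These genes were also at their highest on the FOXOA3 array alone, with differences of 32.5-fold for Igsf1 and at least 17.1-fold for Dmrtc1c1. Sfrp2, a secreted binder of WNT proteins, read 63.9 with vehicle, 22.3 with GFP and FSH, 2111 with FOXOA3 and FSH and 31.7 with the mutant, and Mmp13, a collagenase, read 40.1 with vehicle, 11.8 with GFP and FSH, 1805 with FOXOA3 and FSH and 83.5 with the mutant. Sfrp2 was at least 21.0-fold higher and Mmp13 at least 18.0-fold higher, and neither exceeded the floor on the other 3 arrays.

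Other leading genes were bright with vehicle, dim with FSH and bright again with FOXOA3. Pamr1, a secreted protein with a protease-like domain, read 4606 with vehicle, 72.7 with GFP and FSH, 6284.5 with FOXOA3 and FSH and 187.5 with the mutant, a difference of at least 62.5-fold. Agtr2, the type 2 angiotensin receptor, read 4043 with vehicle, 23.5 with GFP and FSH, 3758 with FOXOA3 and FSH and 575 with the mutant, a difference of at least 37.4-fold. Tnfrsf11b, the decoy receptor osteoprotegerin, read 9801.5 with vehicle, 81.1 with GFP and FSH, 3718 with FOXOA3 and FSH and 442 with the mutant, a difference of at least 37.0-fold. In all 3 genes the GFP FSH array was the only one under the floor. Anpep (aminopeptidase N) was at least 21.0-fold higher, P2ry14 (a receptor for sugar nucleotides) at least 18.4-fold and Rab3b (a small GTPase of secretory vesicles) at least 22.2-fold.

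Several leading genes were bright on the mutant array too. Cnr1, the cannabinoid receptor, read 178 with vehicle, 87.8 with GFP and FSH, 4662 with FOXOA3 and FSH and 5193 with the mutant and was at least 46.4-fold higher. Scin, an actin-severing protein, read 40.9 with vehicle, 59.6 with GFP and FSH, 2059 with FOXOA3 and FSH and 1536 with the mutant and was at least 20.5-fold higher. Reln (reelin, a secreted glycoprotein) was 20.4-fold higher and Ube3al1 17.9-fold higher. Reln read 307 with vehicle, 154 with GFP and FSH, 3136 with FOXOA3 and FSH and 786 with the mutant. Ube3al1 read 1356, 177, 3165 and 1395.5 in that order, so it was about as bright with vehicle as with the mutant. For Cnr1 the mutant signal lay above the FOXOA3 signal, and for Scin below it.

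Genes known as FOXO targets in other tissues were higher more often than lower. Of 60 genes on this list 56 were on the array by name and 48 were measured, of which 21 were higher and 5 lower, and the median log2 ratio was 0.82 against 0.04 for all measured genes. Pdk4, a kinase that shuts off pyruvate oxidation, read 546 with vehicle, 34.4 with GFP and FSH, 1513 with FOXOA3 and FSH and 617 with the mutant. It was under the floor with GFP and FSH only, and at least 15.1-fold higher with FOXOA3. Irs2, an adaptor of the insulin receptor, read 1896 with vehicle, 287 with GFP and FSH, 1599 with FOXOA3 and FSH and 3838 with the mutant and was 5.58-fold higher. Klf6, a zinc-finger factor, read 4981 with vehicle, 516 with GFP and FSH, 4612.5 with FOXOA3 and FSH and 2219 with the mutant and was 8.94-fold higher. Both were lowest on the GFP FSH array. Cav1, caveolin of the plasma membrane, was 8.15-fold higher and reached its top on the mutant array, at 10669.

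Cdkn1a, the p21 inhibitor of cyclin-dependent kinases, read 3904 with vehicle, 1436 with GFP and FSH, 5657 with FOXOA3 and FSH and 1721 with the mutant and was 3.94-fold higher. Bcl6, a transcriptional repressor, was 3.82-fold higher, and Klf2 4.28-fold higher. Sesn3, a sestrin that restrains mTOR complex 1, was at least 4.57-fold higher, and Pik3ip1, an inhibitor of phosphatidylinositol 3-kinase, 4.22-fold higher. Gadd45a, Gadd45b and the pro-death gene Bbc3 were 3.01-fold, 3.27-fold and 2.55-fold higher. Cdkn1b, the p27 inhibitor, read 3451.5 with vehicle, 5547 with GFP and FSH, 6392 with FOXOA3 and FSH and 7866 with the mutant, a log2 ratio of 0.20. It was at its lowest with vehicle, whereas Cdkn1a was lowest with GFP and FSH.

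A minority of these targets was lower. Ddit4, an mTOR inhibitor, read 180.3 with vehicle, 10827 with GFP and FSH, 3360.2 with FOXOA3 and FSH and 2039 with the mutant and was 3.22-fold lower. Trib2, a pseudokinase, was 2.52-fold lower, Abca1, a cholesterol exporter, 2.40-fold lower, and Cat, the enzyme catalase, 2.39-fold lower. Trib2 came within 2-fold after quantile normalization, loess or the mean of probe sets, and Abca1 with the mean of probe sets or the 75th percentile floor. After loess 3 targets were lower in place of 5. Ddit4 was dim with vehicle and bright with FSH alone, which set it apart from Pdk4 and Irs2. Foxo1 itself read 8149 with vehicle, 2862 with GFP and FSH, 3834.5 with FOXOA3 and FSH and 961 with the mutant, with a log2 ratio of 0.42. Whether these probes detect the vector's transcript is not given, so Foxo1 does not check the labels. Foxo3 had a log2 ratio of -0.52 and Foxo4 0.41.

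**Figure D4:**
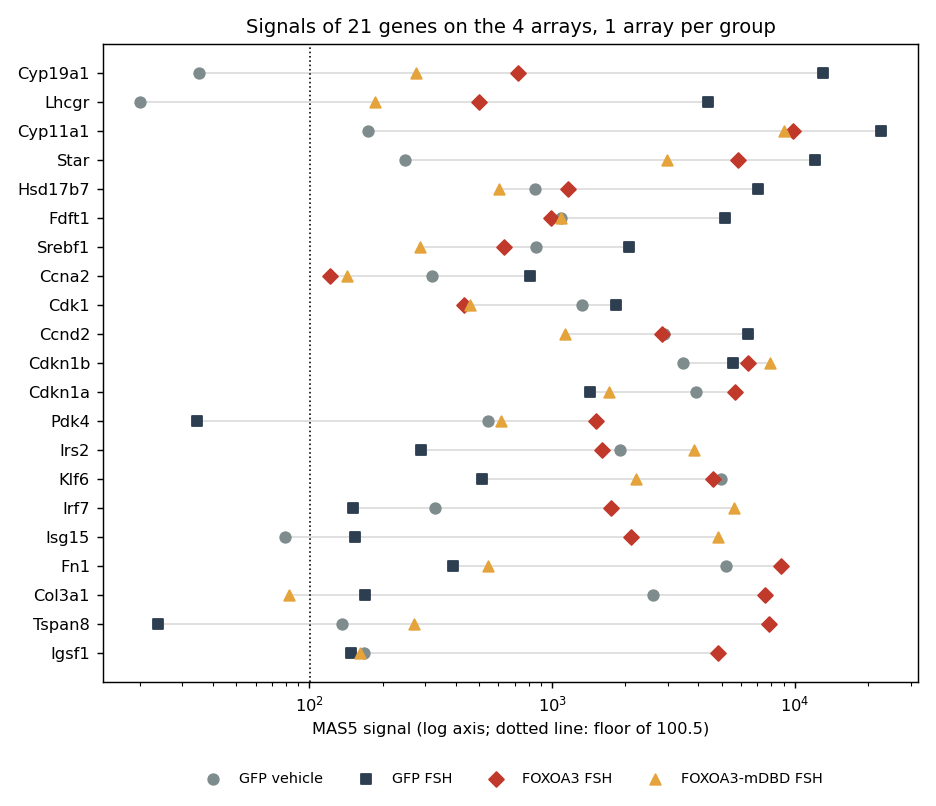
MAS5 signals (horizontal, log axis) of 21 genes on the 4 arrays, 1 array per group, with the floor of 100.5 as a dotted line. Cyp19a1 reads 13042 with GFP and FSH and 725.5 with FOXOA3 and FSH, and Pdk4 reads 34.4 and 1513 on those arrays.

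Of 20 measured genes of steroid synthesis, 10 were lower and 3 higher (median log2 ratio -0.90). After loess 7 were lower and 2 higher (median -0.61), and after quantile normalization 7 lower and 1 higher. Cyp19a1, aromatase, had the lowest ratio of all measured genes. It read 35 with vehicle, 13042 with GFP and FSH, 725.5 with FOXOA3 and FSH and 275 with the mutant, a difference of 18.0-fold. All 3 of its probe sets were lower, with log2 ratios of -4.17, -4.52 and -5.06, the last a bound. Only the GFP FSH array was bright, and FOXOA3 still stood above vehicle.

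The enzymes that start the pathway differed less. Cyp11a1, the side-chain cleavage enzyme, read 173.5 with vehicle, 22700.1 with GFP and FSH, 9809 with FOXOA3 and FSH and 8979 with the mutant and was 2.31-fold lower. Star, which brings cholesterol into mitochondria, read 247 with vehicle, 12092.5 with GFP and FSH, 5854 with FOXOA3 and FSH and 2976 with the mutant and was 2.07-fold lower. Both stayed far above vehicle on the FOXOA3 array, and both came within 2-fold after quantile normalization or loess, and Star also with the mean of probe sets. Hsd17b1, which makes estradiol from estrone, was 4.38-fold lower. Hsd3b1, the 3-beta-hydroxysteroid dehydrogenase, had a log2 ratio of -0.79 and did not reach 2-fold. Of the regulators, Nr5a2 (LRH-1) was 2.58-fold lower and Gata4 2.46-fold lower, while Nr5a1 (SF-1) had a log2 ratio of -0.26. Nr0b1 (DAX-1), a repressor of steroidogenic genes, was 2.29-fold higher, but within 2-fold after quantile normalization. Alas1, the first enzyme of heme synthesis, read 1748 with vehicle, 20573 with GFP and FSH, 3309.8 with FOXOA3 and FSH and 2923 with the mutant and was 6.22-fold lower.

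Receptors and secreted products of FSH-treated granulosa cells followed. On the list of gonadotropin response genes, 14 of 33 measured were lower and 2 higher (median -0.77). After loess 10 were lower and 3 higher (median -0.52). Lhcgr, the luteinizing hormone receptor, read 20 with vehicle, 4402 with GFP and FSH, 497 with FOXOA3 and FSH and 185.5 with the mutant and was 8.85-fold lower. Prlr, the prolactin receptor, read 97.4 with vehicle, 5042 with GFP and FSH, 1210.5 with FOXOA3 and FSH and 925 with the mutant and was 4.17-fold lower. Nppc, the C-type natriuretic peptide that holds the oocyte in meiotic arrest, read 59.3 with vehicle, 1065.5 with GFP and FSH, 186 with FOXOA3 and FSH and 26.7 with the mutant and was 5.74-fold lower. All 3 were bright with FSH and GFP and under the floor with vehicle.

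The inhibin and activin subunits were 2.59-fold lower for Inha, 2.72-fold for Inhbb and 2.03-fold for Inhba. Areg and Ereg, ligands of the epidermal growth factor receptor, were 2.23-fold and 2.44-fold lower. Areg on the mutant array read 4537, above its 3079 with GFP and FSH. On the higher side stood Akap12, which anchors protein kinase A, at 6.46-fold, and Igfbp4, which binds insulin-like growth factors, at 3.90-fold. Egr1, an immediate-early factor, lay just under the 2-fold line with a log2 ratio of 1.00, and Ptgs2, the prostaglandin synthase of ovulation, had 0.01. Other lower genes at the end of the ranking were Tmem252 (at least 8.24-fold), Asphd2 (7.44-fold), Phactr1 (6.63-fold), Csrnp3 (6.40-fold), Rasd1 (5.86-fold), a small G protein, and Ass1 (5.95-fold), an enzyme of arginine synthesis.

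Nearly all cholesterol synthesis genes were lower. From the mevalonate pathway to squalene epoxide, 8 of 9 measured genes were lower and none higher (median -1.51), and of the later sterol enzymes 9 of 10 were lower and none higher (median -1.93). Fdft1, squalene synthase, read 1091 with vehicle, 5149.5 with GFP and FSH, 989 with FOXOA3 and FSH and 1090.3 with the mutant and was 5.21-fold lower. Sqle, squalene epoxidase, read 1489 with vehicle, 6353 with GFP and FSH, 1464 with FOXOA3 and FSH and 1208 with the mutant and was 4.34-fold lower. Hsd17b7 read 848 with vehicle, 7026.5 with GFP and FSH, 1158 with FOXOA3 and FSH and 605 with the mutant and was 6.07-fold lower. In these 3 genes only the GFP FSH array was high, and Fdft1 and Sqle with FOXOA3 were at about the vehicle level.

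Idi1 had the smallest difference among the lower genes of the mevalonate arm, at 2.03-fold, and Tm7sf2, a sterol reductase, the largest of both lists, at 7.25-fold. Lss, which closes the sterol rings, was 5.41-fold lower and Nsdhl 5.21-fold. The genes not lower were Ggps1, which makes the lipid for protein prenylation and had a log2 ratio of -0.12, and Lbr, a sterol reductase of the nuclear envelope, with 0.82. Of 14 SREBP and LXR regulators 2 were lower and 1, the NF-Y subunit Nfya (2.98-fold), higher. With the mean of probe sets none was higher and 1 lower, since Nfya and Srebf1 came within 2-fold. Srebf1, which encodes the SREBP-1 factor, read 856 with vehicle, 2068 with GFP and FSH, 634 with FOXOA3 and FSH and 285 with the mutant and was 3.26-fold lower, whereas its second, dimmer probe set had a log2 ratio of -0.13. Srebf2, for SREBP-2, had a log2 ratio of -0.12, and Insig1, which holds SREBPs in the endoplasmic reticulum, was 3.11-fold lower. On the mutant array these regulators read 285, 563 and 2553, each below the FOXOA3 array.

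Cholesterol uptake and fatty acid synthesis were lower in part. On the list of uptake, transport and storage, 7 of 19 were lower and 3 higher (median -0.57). The median was -0.20 after loess and -0.22 after quantile normalization, with 7 lower and 3 higher in each. Scarb1, the receptor for high-density lipoprotein, read 446 with vehicle, 12829 with GFP and FSH, 4790.2 with FOXOA3 and FSH and 2463 with the mutant and was 2.68-fold lower. Lrp8, a lipoprotein receptor, was 4.86-fold lower and Stard4, a carrier of cholesterol, 3.89-fold lower. Cav1 and Cav2 were the main exceptions, with Cav2 at least 11.9-fold higher by its brightest probe set and within 2-fold by the mean of its probe sets. Of 25 genes of fatty acid and glycerolipid synthesis, 13 were lower and 1 higher (median -1.06, or -0.90 after loess). Elovl6, an elongase, was 6.28-fold lower, Acsbg1, an acyl-CoA synthetase, 6.26-fold lower, and Acss2, which makes acetyl-CoA from acetate, 5.26-fold lower. Fasn, fatty acid synthase, read 2218 with vehicle, 3553.5 with GFP and FSH, 1256 with FOXOA3 and FSH and 641 with the mutant and was 2.83-fold lower, while Acaca and Acly had log2 ratios of -0.90 and -0.75.

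Most genes of mitosis were lower, and none was higher. Of 34 measured, 28 were lower, with a median of -1.55. Ccna2, cyclin A, read 318 with vehicle, 807 with GFP and FSH, 121 with FOXOA3 and FSH and 143 with the mutant and was 6.64-fold lower. Cdk1 read 1329.7 with vehicle, 1824 with GFP and FSH, 433.5 with FOXOA3 and FSH and 459.9 with the mutant and was 4.21-fold lower. Bub1b, of the spindle checkpoint, was at least 6.40-fold lower, Pbk, a mitotic kinase, 6.95-fold lower, and Ttk 5.43-fold lower. Ccna2 and Cdk1 were below vehicle as well with FOXOA3, and the mutant array was close to the FOXOA3 array in both. Mki67, the proliferation antigen, was 3.39-fold lower. Birc5 and Hmmr had log2 ratios of 0.03 and 0.04.

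Of 30 measured DNA replication genes, 15 were lower and none higher (median -0.94). Pclaf, a partner of the sliding clamp, read 1380 with vehicle, 3767.5 with GFP and FSH, 562 with FOXOA3 and FSH and 425 with the mutant and was 6.70-fold lower, and Cdt1, a licensing factor, was 3.65-fold lower. Of the replicative helicase, Mcm2, Mcm5 and Mcm7 were lower by 2.18-fold, 2.30-fold and 2.38-fold, and Mcm3 and Mcm4 had log2 ratios of -0.46 and 0.41. For Fen1, a flap nuclease, and Rrm1, of ribonucleotide reductase, the mutant array read 2686 and 4989, above all other arrays.

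Genes of the G1 phase were split, with 5 of 22 higher and 5 lower. Ccnd2, the D-type cyclin of FSH-driven growth, read 2878 with vehicle, 6379 with GFP and FSH, 2831 with FOXOA3 and FSH and 1132 with the mutant and was 2.25-fold lower. Ccne2 was 3.05-fold lower and Rbl1 2.51-fold lower. Higher were the inhibitors Cdkn1a, Cdkn2c (2.43-fold) and Cdkn2d (at least 5.57-fold), the MYC antagonist Mxi1 (2.58-fold) and Ccnd3 (2.67-fold), which read 978 with vehicle, 377 with GFP and FSH, 1006 with FOXOA3 and FSH and 401 with the mutant. Ccnd2 came within 2-fold after loess, Cdkn2c with the mean of probe sets, and Ccnd3, Ccne2 and Cdkn2d with the 75th percentile floor.

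**Figure D5:**
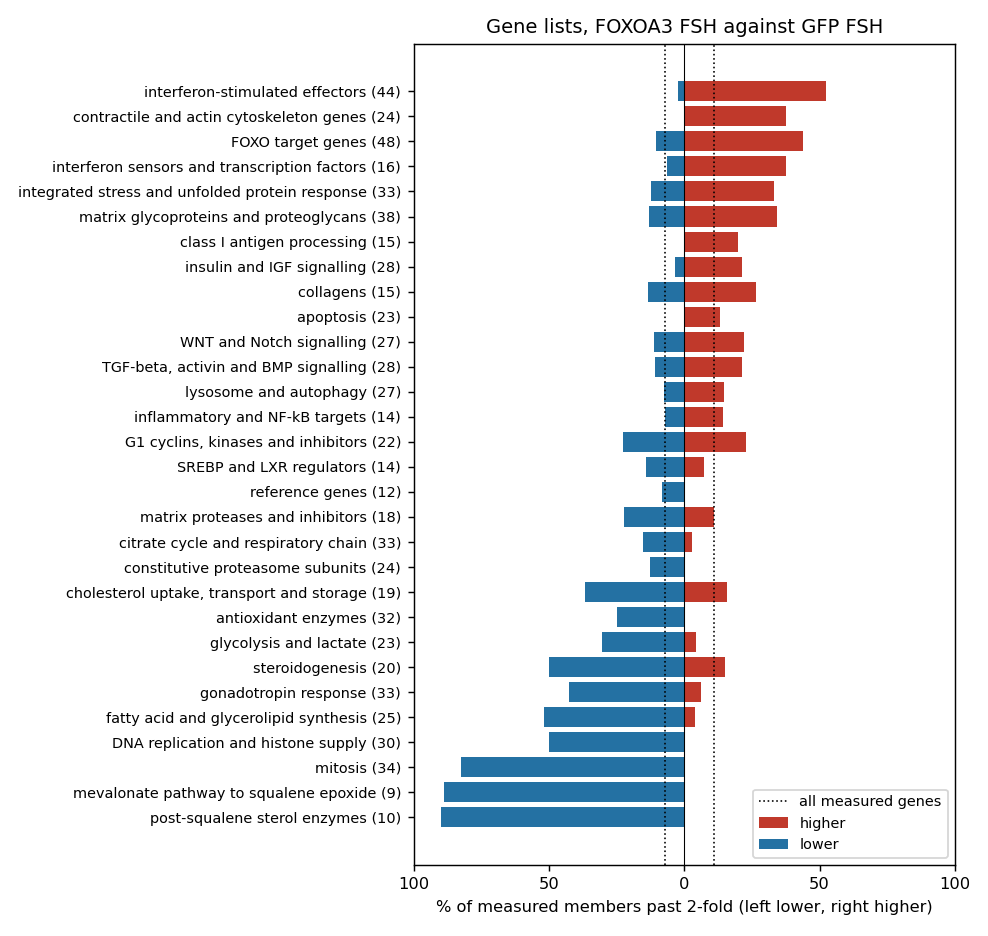
Percent of the measured members of each gene list (number in brackets) that were lower (left) or higher (right) with FOXOA3 by 2-fold or more, with dotted lines at the shares of all measured genes (6.99% lower, 11.1% higher). The lists with the largest lower share are the sterol enzymes, with 9 of 10 and 8 of 9 genes, and mitosis, with 28 of 34.

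Many interferon-stimulated genes were higher. Of 44 measured effectors, 23 were higher and 1 lower (median 1.04). Isg15, a ubiquitin-like protein, read 79.3 with vehicle, 154 with GFP and FSH, 2103 with FOXOA3 and FSH and 4805 with the mutant and was 13.6-fold higher. Rsad2 (viperin) read 62.7 with vehicle, 48.9 with GFP and FSH, 1236 with FOXOA3 and FSH and 1646 with the mutant and was at least 12.3-fold higher. Mx2, an antiviral GTPase, read 186 with vehicle, 274 with GFP and FSH, 2348 with FOXOA3 and FSH and 3533 with the mutant and was 8.57-fold higher. For each of the 3 genes the mutant array was higher still, and the vehicle and GFP FSH arrays were both far dimmer.

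Of 16 measured sensors and transcription factors of that response, 6 were higher and 1 lower (median 0.27). Irf7 read 329 with vehicle, 152 with GFP and FSH, 1742.5 with FOXOA3 and FSH and 5623 with the mutant and was 11.5-fold higher. Usp18, which trims Isg15 from proteins, read 124 with vehicle, 60.2 with GFP and FSH, 1854 with FOXOA3 and FSH and 1620.4 with the mutant and was at least 18.5-fold higher. Irf9 and Stat2, partners in the factor ISGF3, were 6.37-fold and 2.28-fold higher, Irf3 was 2.07-fold lower, and the receptor chains Ifnar1 and Ifnar2 had log2 ratios of -0.73 and -0.38. Among the effectors, Cxcl10, a chemokine, was at least 6.96-fold higher, while Mx1, Ifit1 and Ifit2 did not reach 2-fold, with log2 ratios of 0.09, 0.32 and 0.56.

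Of 14 inflammatory and NF-kB target genes 2 were higher, Nfkbiz (at least 5.91-fold) and Relb (2.27-fold), and 1 lower. These shares of 14.3% and 7.14% were close to the 11.1% and 6.99% of all measured genes. Relb came within 2-fold after loess or quantile normalization and Nfkbiz with the mean of probe sets. Class I antigen genes were 3 of 15 higher and none lower (median -0.22). RT1-S3 read 139 with vehicle, 82.3 with GFP and FSH, 1647.5 with FOXOA3 and FSH and 905 with the mutant and was at least 16.4-fold higher, and RT1-T24-4 was 5.81-fold higher. These class I genes are near-identical copies of each other, so their probe sets may share signal. Tap1, the peptide transporter, had a log2 ratio of -0.34. Ifitm1, a membrane protein, was 7.04-fold higher but read 353 on the mutant array, below its 2345 with vehicle.

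Matrix genes split between strongly higher and lower members. Of 38 glycoproteins and proteoglycans, 13 were higher and 5 lower (median 0.39), and of 15 collagens 4 were higher and 2 lower, or 2 higher after loess. Col3a1 read 2607 with vehicle, 170 with GFP and FSH, 7556 with FOXOA3 and FSH and 82 with the mutant and was 44.4-fold higher. Dcn, the proteoglycan decorin, read 624 with vehicle, 485 with GFP and FSH, 12504 with FOXOA3 and FSH and 206 with the mutant and was 25.8-fold higher. Fn1, fibronectin, read 5224 with vehicle, 389 with GFP and FSH, 8740.5 with FOXOA3 and FSH and 543.5 with the mutant and was 22.5-fold higher. Col3a1 and Fn1 were dim with GFP and FSH and with the mutant and bright with vehicle and with FOXOA3, while Dcn was by far brightest with FOXOA3.

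Aspn, asporin, read 1099 with vehicle, 22.4 with GFP and FSH, 3305 with FOXOA3 and FSH and 11514 with the mutant and was at least 32.9-fold higher, with its highest signal on the mutant array. Lox, which crosslinks collagen, read 14022 with vehicle, 1656 with GFP and FSH, 10218 with FOXOA3 and FSH and 899 with the mutant and was 6.17-fold higher, and Ccn3, Ccn1 and Tnc were 7.25-fold, 10.3-fold and at least 6.07-fold higher. Lower were Ogn (osteoglycin, 5.06-fold), Tgfbi (4.65-fold), Omd (2.85-fold), Vcan (versican, 2.22-fold) and Lum (at least 2.15-fold), with Vcan within 2-fold after quantile normalization, loess or the mean of probe sets. Of 18 matrix proteases and inhibitors 2 were higher, Adamts5 and Mmp13, and 4 lower. The higher share was 11.1%, as among all measured genes, and the lower share 22.2% against 6.99%. Adamts5, which cleaves proteoglycans, was 6.83-fold higher, while Adamts4 was 3.75-fold lower.

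Contractile and actin-binding genes were higher in 9 of 24 and lower in none, with a median of 0.82. Myh9, nonmuscle myosin, read 5576 with vehicle, 487 with GFP and FSH, 3622 with FOXOA3 and FSH and 1017 with the mutant and was 7.43-fold higher. Cald1 read 13257 with vehicle, 2154.5 with GFP and FSH, 9573 with FOXOA3 and FSH and 2760.3 with the mutant and was 4.44-fold higher, and Acta2, smooth muscle actin, read 3711 with vehicle, 192 with GFP and FSH, 594 with FOXOA3 and FSH and 215 with the mutant and was 3.09-fold higher. All 3 stood highest with vehicle and lowest with GFP and FSH. Vim, vimentin, had a log2 ratio of -0.88.

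Markers of other cells were measured beside these groups. Of 11 measured markers of theca, stroma and smooth muscle, 6 were higher and 2, Ogn and Lum, lower. The higher 6 were Col3a1, Aspn, Dcn, Tagln, Acta2 and Col1a2, which also are members of the lists above. Col1a2 came within 2-fold after loess or with the mean of probe sets, and 5 markers of this set were then higher. Over all 19 of these markers on the array, the summed signal was 15562 with GFP and FSH and 30849 with FOXOA3 and FSH. With vehicle it was 27455 and with the mutant 16709. Single genes weighed heavily in these sums. Ogn read 12973 with GFP and FSH and 2562 with FOXOA3 and FSH, where Dcn read 12504 and Col3a1 7556. With the mutant, Aspn read 11514. The defining theca genes Cyp17a1 and Insl3 and the stromal genes Pdgfrb, Thy1, Tcf21, Col1a1 and Postn were under the floor on both compared arrays. Of 8 measured leukocyte markers 2 were higher, Cd14 (3.55-fold) and Lyz2 (2.14-fold). The summed signal of all 17 leukocyte markers on the array was 2019 with GFP and FSH and 4928 with FOXOA3 and FSH. That sum includes 9 markers under the floor on both compared arrays, among them Ptprc, Cd68 and Cd3e. Of the measured markers of endothelium 1 of 4 was higher, of oocytes 1 of 3 was lower and of surface epithelium none of 5 differed by 2-fold. Of 13 luteal markers 6 were lower, or 4 after loess or quantile normalization. The part of these markers of other cells in the matrix and interferon results was not tested. The granulosa label was checked against Foxl2, a transcription factor of these cells, at 3536 with GFP against 4297 with FOXOA3, and Inha, at 29569 with GFP against 11433 with FOXOA3, and both were well above the floor. Of 16 measured granulosa markers 9 were lower and none higher, and these include the FSH-responsive Cyp19a1, Inha and Hsd17b1. After loess 7 granulosa markers were lower, and after quantile normalization 8. With the mean of probe sets 8 of 15 were lower and 1 higher.

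Growth factor signalling genes differed in both directions. Of all measured genes 11.1% were higher and 6.99% lower. In the TGF-beta, activin and BMP list, 6 of 28 were higher (21.4%) and 3 lower (10.7%). Acvr2a, an activin receptor, read 625 with vehicle, 436 with GFP and FSH, 1782 with FOXOA3 and FSH and 3641 with the mutant and was 4.09-fold higher. Tgfb2 was 3.42-fold higher and Smad1 2.70-fold higher. Bmp6 was 2.30-fold lower, Id3, a target of BMPs, 2.20-fold lower, and Bmpr2 4.29-fold lower by its brighter probe set, the other being under the floor. Id3 came within 2-fold after quantile normalization or loess, and Bmp6 and Bmpr2 with the mean of probe sets. In the insulin and IGF list, 6 of 28 were higher (21.4%) and 1 lower (3.57%). The higher ones were Irs2 and Pik3ip1, named above, Igfbp4 and Igfbp6 (at least 3.43-fold), the AKT phosphatase Phlpp1 (2.60-fold) and Rictor (2.16-fold). Igfbp5 was 2.55-fold lower. With the mean of probe sets 3 were higher, and Igfbp6 and Rictor came within 2-fold. Among WNT and Notch genes, 6 of 27 were higher (22.2%) and 3 lower (11.1%). After loess 4 of 27 were higher, and after quantile normalization 4 of 24, with 3 lower in each. Hey1, a Notch target, read 517.5 with vehicle, 144 with GFP and FSH, 955 with FOXOA3 and FSH and 16137.5 with the mutant and was 6.62-fold higher, and Hey2 was 4.06-fold higher, while the ligand Jag1 was 2.22-fold lower. Hey1 was far brightest on the mutant array.

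Stress genes were higher in 11 of 33 and lower in 4 (median -0.11). The integrated stress response members Atf3, Ddit3 (CHOP) and Chac1 were 3.23-fold, 2.96-fold and 3.31-fold higher, and Nupr1 3.84-fold. The chaperones Hspa5 (BiP) and Hsp90b1 were 2.59-fold and 2.05-fold lower, and both came within 2-fold after quantile normalization or loess. The list then had 8 higher and 1 lower or 9 higher and 1 lower, and its median turned to 0.10 or 0.15. With the mean of probe sets it had 9 higher and 3 lower and a median of 0.10. Dnajb9, a co-chaperone, read 2389 with vehicle, 2373 with GFP and FSH, 6500.3 with FOXOA3 and FSH and 10908 with the mutant and was 2.74-fold higher. Atf4 itself had a log2 ratio of 0.25.

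Of 32 antioxidant genes, 8 were lower and none higher (median -0.41). After loess 7 were lower and 1 higher, with a median of -0.13. Gclc, the rate-limiting enzyme of glutathione synthesis, read 258 with vehicle, 1309 with GFP and FSH, 319 with FOXOA3 and FSH and 413 with the mutant and was 4.10-fold lower, and the transferases Gsta1 and Gsta4 were 3.63-fold and 2.77-fold lower, Gsta4 coming within 2-fold after loess. Of 23 glycolysis genes 7 were lower and 1, Pdk4, higher (median -0.72). Pfkm, a phosphofructokinase, was 3.22-fold lower, Aldoc at least 3.17-fold lower and Tpi1 2.38-fold lower. After loess or quantile normalization 4 genes of the list were lower and its median was -0.28 or -0.34, and Tpi1 was within 2-fold after either. Ldha and Pgk1 had log2 ratios of -0.64 and -0.90. Of 33 citrate cycle and respiratory chain genes 5 were lower and 1 higher (median -0.38), with Ndufs1 2.70-fold lower. That median was -0.18 after loess, with 14 genes above 0 and 19 below, though the counts of calls were the same. All 24 constitutive proteasome genes had a ratio below 0 (median -0.68), though only 3 passed 2-fold. That median was -0.45 after loess, where none of the 24 passed 2-fold and all 24 still lay below 0. Median signals with GFP and FSH and with FOXOA3 and FSH were 6624 and 3809 for the proteasome list. They were 5090 and 4508 for the citrate cycle and respiratory chain list. Both lists thus lie in the range of the brightest decile (from 3615), whose median given above is -0.37. Antioxidant genes, at 2571 and 2220, and glycolysis genes, at 1097 and 1509, were dimmer. The part of brightness in these medians was not tested.

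Cell death and autophagy genes were close to the whole. Of 23 apoptosis genes 3 were higher and none lower (median 0.09). They were Apaf1, which assembles the apoptosome (3.36-fold), Bbc3, and Birc2 (2.03-fold), which came within 2-fold after quantile normalization or median centring. Of 27 lysosome and autophagy genes 4 were higher and 2 lower (median 0.06), or 2 higher after quantile normalization. Atg13, of the initiation complex, was 3.73-fold higher and Map1lc3a 2.44-fold higher.

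Side by side with the other comparisons, which share the GFP FSH array with this one, the lists had these medians. For mitosis the log2 median was 0.78 for FSH over vehicle with GFP, -1.55 for FOXOA3 and -1.48 for the mutant, each against GFP with FSH. For the later sterol enzymes the 3 values were 1.84, -1.93 and -2.19, and for steroidogenesis 1.10, -0.90 and -1.44. For FOXO targets they were -0.45, 0.82 and 0.18, and for contractile genes -1.58, 0.82 and -0.16. For interferon-stimulated effectors they were 0.05, 1.04 and 1.04. A high or low GFP FSH signal enters all 3 comparisons, so these values are not independent of each other.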

How the data were processed

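The deposited table holds the authors' MAS5 signal intensities, 1 array per group, on a linear scale; the submitters' processing notes name MAS5, with neither a version nor settings. The arrays each have a 2% trimmed mean near 500.2. The probe annotation gave 1 symbol to 20826 rat probe sets, several to 436 and none to 9780; 57 control probe sets were set aside. Per gene, the probe set with the highest mean over the 4 arrays was used. Signals were raised to a floor of 100.5, and log2 ratios and folds were computed from the deposited intensities with Python 3.11.15, pandas 2.3.3 and statsmodels 0.14.6 (loess span 0.4).

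Calls are at 2-fold; no test was possible. Genes named were the 20 highest and 20 lowest ratios, up to 6 called members of each list and direction, and 14 genes of interest whatever their value; others were picked after their values were seen. The members and lists were chosen with earlier results of these data known. Of 1033 list entries 936 were on the array by name. Alternatives were quantile normalization, median centring, loess, other floors, no floor and the mean of a gene's probe sets. The calling steps were tested on simulated data with changes of 4-fold or 8-fold in bright genes. That simulation held no changes near 2-fold, no changed genes near the floor and no trend with brightness.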

Additional observations from a re-analysis of the deposited data

Results flagged for a closer look

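Probe sets with several gene symbols or none were outside the comparison. Of 3926 that were measured, 448 were higher with FOXOA3 by 2-fold or more (11.4%) and 253 lower (6.44%). Probe sets with exactly 1 symbol gave 1498 of 13217 (11.3%) and 904 (6.84%). The shares of both kinds of probe sets were thus close to each other. Those with several symbols or none were listed only because no comparison used them.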

How the results depend on the processing

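No paired analysis was possible because each group had 1 array. The counts of 1105 higher and 695 lower genes became 919 and 820 with quantile normalization, 1027 and 758 with median centring, 963 and 741 after loess, and 982 and 627 with the mean of probe sets. They moved most with the floor: 1981 higher with the 25th percentile (27.4), 423 higher and 391 lower with the 75th (542.5), and 2850 higher and 1547 lower with no floor. No gene past 2-fold both in the values reported and under one of these settings was on opposite sides. Quantile normalization kept 79.7% of the higher and 91.2% of the lower genes, and loess 83.2% and 89.1%. With the 75th percentile floor, 13 FOXO targets were higher, 9 replication and 14 mitosis genes lower, and 3 G1, 3 interferon sensor, 10 interferon effector, 3 stress, 3 insulin and 3 WNT and Notch genes higher. Glycolysis had 4 lower genes after quantile normalization and 4 after loess. The mean of probe sets left 3 insulin genes higher. WNT and Notch had 12 higher with the 25th percentile floor and 14 with no floor, and matrix glycoproteins 21 with no floor. With the mean of probe sets, Edem1 and Greb1 reversed, to log2 ratios of 0.10 and 1.00, as their probe sets disagree. Some of the 221 named genes passed 2-fold in the values reported and came within it, on the same side, under another setting. These were 29 after quantile normalization, 29 after loess and 5 after centring. They were 34 of 188 measured with the 75th percentile floor and 19 of 212 with the mean of probe sets, beside the 2 that reversed. None lost its call with the 25th percentile floor or no floor. That outcome was fixed in advance, since lowering the floor leaves a ratio unchanged or makes it larger in size. A change of floor also cannot move a gene to the opposite side. Signals near the floor limit the dim genes.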

Other observations

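Genes outside the lists, picked after their values were seen, were of other kinds. Among cell adhesion and guidance genes, Pcdh20, a protocadherin, read 312 with vehicle, 74.5 with GFP and FSH, 1422 with FOXOA3 and FSH and 9005 with the mutant and was at least 14.1-fold higher, and Epha3, an ephrin receptor, read 12.3 with vehicle, 45.5 with GFP and FSH, 959 with FOXOA3 and FSH and 6752 with the mutant and was at least 9.54-fold higher. For both, the mutant array was higher still. Cdh10, a cadherin, read 40.2 with vehicle, 1.9 with GFP and FSH, 1559.5 with FOXOA3 and FSH and 136 with the mutant and was at least 15.5-fold higher, and Sema3e, a semaphorin, read 3021.5 with vehicle, 353 with GFP and FSH, 3769 with FOXOA3 and FSH and 418.5 with the mutant and was 10.7-fold higher. Cdh10 was bright on the FOXOA3 array, and Sema3e on the FOXOA3 and vehicle arrays. Depp1, a gene known to answer FOXO factors, read 132 with vehicle, 46.3 with GFP and FSH, 1043 with FOXOA3 and FSH and 65.8 with the mutant and was at least 10.4-fold higher. Rln1, relaxin, read 121 with vehicle, 237 with GFP and FSH, 2597 with FOXOA3 and FSH and 344.5 with the mutant and was 10.9-fold higher. Depp1 and Rln1 were brightest on the FOXOA3 array alone.

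Metabolic genes outside the lists included Cdo1, which oxidises cysteine, at 708 with vehicle, 136 with GFP and FSH, 2298 with FOXOA3 and FSH and 187 with the mutant and 16.9-fold higher, and Xdh, xanthine dehydrogenase, at 1683 with vehicle, 156 with GFP and FSH, 1355 with FOXOA3 and FSH and 1277 with the mutant and 8.70-fold higher. Among the lower genes, Crabp2, a binder of retinoic acid, read 429.5 with vehicle, 14955 with GFP and FSH, 3016 with FOXOA3 and FSH and 3828 with the mutant and was 4.96-fold lower. Isyna1, which makes inositol, read 2488 with vehicle, 21659 with GFP and FSH, 4909.5 with FOXOA3 and FSH and 1865 with the mutant and was 4.41-fold lower. Both were brightest with GFP and FSH.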
